A study of Homo sapiens with 4 samples.

Results

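Transcripts of 7 caspases (CASP1, CASP2, CASP4, CASP6, CASP8, CASP9 and CASP10) and of the apoptosome scaffold APAF1 were measured in A549 cells, a human lung adenocarcinoma line, after treatment with embelin. These 8 genes were chosen by name. Every probe that carried 1 of the names on the array, or whose accession is a transcript of the gene, was taken, which gave 16 of the 50238 probes. A probe was compared where the scanner software called it well above background on both control arrays or on both embelin arrays. This held for 13 of the 16 probes, from all 8 genes, and each of these 13 was well above background on all 4 arrays. The other 3, 1 each for CASP2, CASP8 and CASP10, were well above background on 1 control and 1 embelin array only and are given as values.

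The comparison asks which transcripts differ early after exposure to embelin. The study exposed A549 cells, kept in medium with reduced serum beforehand, to embelin at 15 µM for 4 h and compared them with untreated controls of the same 4 h. Embelin is a benzoquinone from plants that is known as an inhibitor of XIAP, a protein that blocks caspases. Each group had 2 samples, labelled with Cy3 and hybridized to 1 array each, all on 1 slide. The labels number the samples as replicates without saying that they came from separate cultures, so that every p given here speaks for these samples only. Each p and SE from limma also draws on the spread of all compared probes. The cells of all 4 samples were 1 established line, and the time point was 1 only.

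Caspases are cysteine proteases that cut after aspartate residues and are made as inactive zymogens. Initiator caspases are activated on assembly platforms: CASP8 and CASP10 at death receptors through the adaptor FADD, CASP9 on the apoptosome that APAF1 forms with cytochrome c, and CASP2 on the PIDDosome. Executioner caspases such as CASP6 are then cut and dismantle the cell, while CASP1 and CASP4 belong to the inflammatory branch that acts through inflammasomes, cytokine maturation and gasdermin. Because activation acts on protein already made, by assembly or by cleavage, transcript signals give no measure of caspase activity. In bulk RNA, fewer cells that express a gene and less RNA of it per cell cannot be told apart.

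No caspase or APAF1 transcript passed the test after adjustment, and no probe differed 2-fold. Of all compared probes, 1.08% passed adjustment and 8.36% were past 2-fold at an unadjusted p under 0.05. The mean signal was lower in embelin for 10 of the 13 probes, from 7 genes, against 54.6% of all compared probes. The largest difference was 1.78-fold, for CASP10, and was smaller with normexp background correction. The signals of both CASP10 probes, 1 of the CASP2 probes and the CASP1 probe reached an unadjusted p under 0.05, all lower in embelin. Of all compared probes 9.63% did so. CASP9 and CASP4 differed by less than 1.1-fold in every probe. APAF1 was the 1 gene whose embelin arrays both lay above both controls.

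The genes have up to 3 probes each. The CASP2 probes, which gave unlike differences, the CASP10 probes, which gave like ones, and the CASP8 probe whose groups were tight and separate are shown here by sequence. Probes are named by the last part of their identifier on the array, all are 60 bases long, and bases 1 to 30 of each are given, read from the deposited files 5′ to 3′. Capitals mark bases that lie in a run of 14 bases also found, on either strand, in a probe of another name.
CASP10 P209408: aatccttaaaggtgagCCCTCATAGGGAGA
CASP10 P139993: gggagtggctctgTAAGGACGCCTTGATGC
CASP2 P387943: tgatAAAATGTTCCTTTTGacaatatacac
CASP2 P269398: AGAACTGGTTCTTGCCTTCCCCTTGAacct
CASP8 P157087: aatccagctatgaatatagagggcttatgA

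The other CASP8 probe that was compared, P209389, held runs of 14 bases in common with 21 probes of other names, covering 55 of its 60 bases, and 0.151% of all probes on the array shared such runs with as many. The other 15 probes of the 8 genes shared them with 0 to 8 probes of other names. Whether the signal of P209389 comes from CASP8 alone was not tested. No probe of the 8 genes shared a run of 20 bases with a probe of another name, which 4.55% of all probes did. Probes of 1 gene shared no run above 7 bases with each other, so that they read separate stretches of the transcripts. The array design placed none of the 16 on the genome, and coordinates are not used here. P387943 was the most AT-rich of the 16, with 26.7% G and C, against 43.3% in P269398.

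**Figure D1:**
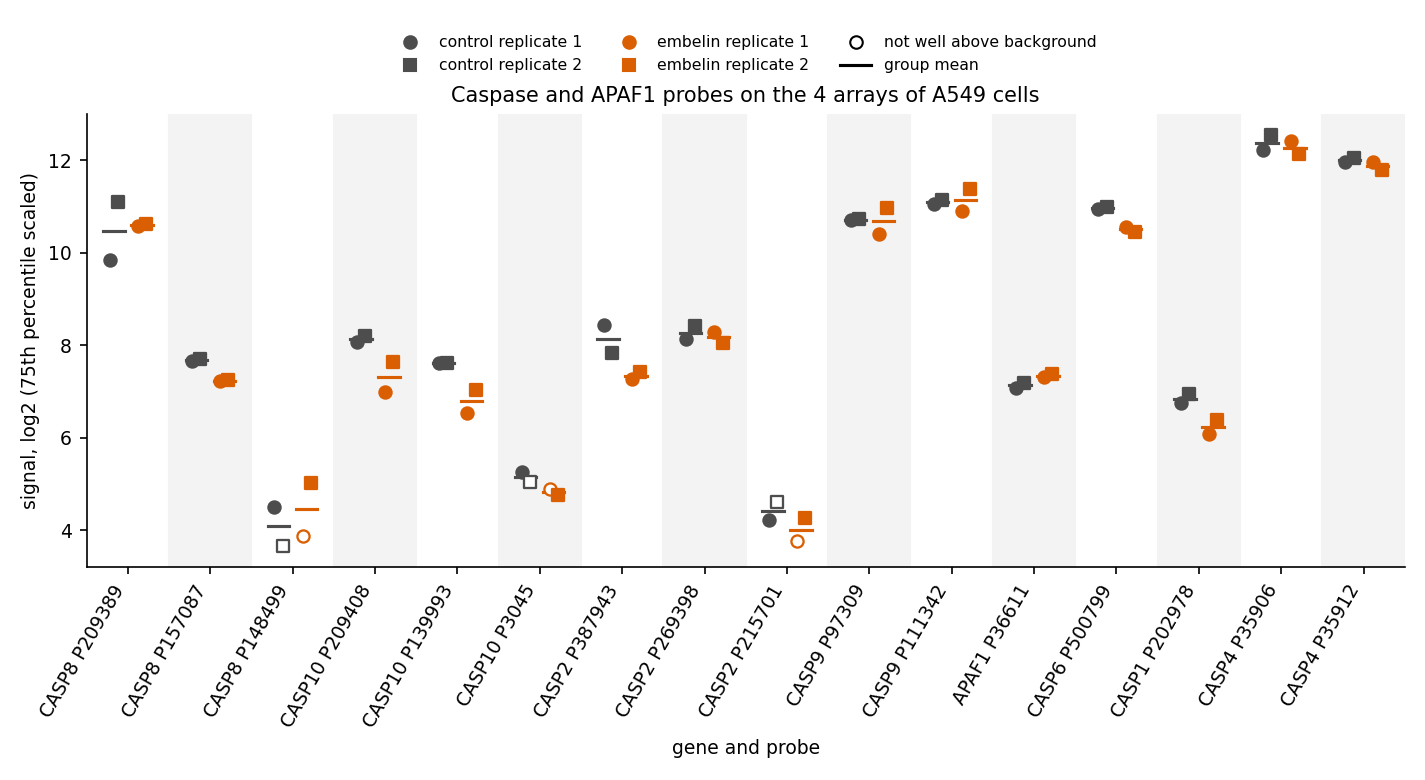
Signal of the 16 probes of CASP8, CASP10, CASP2, CASP9, APAF1, CASP6, CASP1 and CASP4 on each of the 4 arrays, on the log2 scale after scaling to equal 75th percentiles. Points are single arrays, short lines are group means, and open points are spots not well above background. Both embelin points lie below both control points for CASP10 P209408 and P139993, for CASP6 and for CASP1, while those of CASP9 lie on either side of the controls. Levels of different probes are not comparable with each other.

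The measured part of the array sets the scale for these values. Scaled intensities are given on the log2 scale, so that a difference of 1 is 2-fold, and each difference is the embelin mean minus the control mean. Over the 26145 probes compared, 1.08% passed an adjusted p of 0.05 (limma, Benjamini-Hochberg), with 217 higher and 65 lower in embelin. Of these 26145 probes, 8.36% were past 2-fold at an unadjusted p under 0.05. Of the 13 caspase and APAF1 probes, 0 passed either rule. At an unadjusted p under 0.05 with embelin lower stood 4 of the 13 probes, from 3 genes, against 9.63% of all probes. In either direction it was the same 4 of the 13, against 4679 of all 26145 probes. With 1 array left out in turn, the differences of these 4 probes stayed below 0 and ran from -1.15 to -0.46. The mean was lower in embelin for 10 of the 13, against 54.6% of all probes. The groups did not overlap, with embelin below, for 7 of the 13, from 6 genes, against 28.3% of all probes with 4 values, and with embelin above for 1, against 21.4%. The median difference was -0.13 over the 13 probes and -0.04 over all. These 13 probes come from 8 genes and are not independent of each other. With 2 arrays a group, the smallest p that an exact two-sided permutation test can give is 0.333, so none is given for single genes.

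The arrays differed in background. On control replicate 1 and embelin replicate 2, 66.7% and 66.4% of all probes were well above background, against 50.3% and 51.2% on control replicate 2 and embelin replicate 1. Each group therefore holds 1 array of each kind, and differences within the 2 like pairs are given below, where the low-background pair is embelin replicate 2 minus control replicate 1 and the noisier pair is embelin replicate 1 minus control replicate 2. Control arrays lay at the ends of the row of 4 array positions, 1 and 4, and embelin arrays at 2 and 3, so that position and treatment cannot be told apart, other than a linear trend along the row, which was fitted as an alternative.

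Among the initiators that act at death receptors, CASP10 gave the largest differences. P209408 read 8.07 and 8.19 in the controls and 6.98 and 7.64 in embelin replicates 1 and 2. Both embelin arrays lay below both controls, and they lay further from each other (SD 0.47) than the controls did (SD 0.08). The difference was -0.82 (SE 0.29, 95% interval -1.59 to -0.05), with an unadjusted p of 0.0417 and an adjusted p of 0.258. P139993 read 7.62 and 7.62 in the controls, then 6.54 and 7.04 in embelin, a difference of -0.83 (SE 0.24, 95% interval -1.48 to -0.18, unadjusted p = 0.0236, adjusted p = 0.201). The probes thus gave differences that were 0.01 apart, and in both it was embelin replicate 1 that was lowest. In the low-background pair the difference was -0.43 for P209408 and -0.58 for P139993, and in the noisier pair -1.21 and -1.07. Without embelin replicate 2 the differences of P209408 and P139993 were -1.15 and -1.08, and without embelin replicate 1 they were -0.49 and -0.58. With normexp background correction they were -0.58 and -0.52. The third probe, P3045, read 5.26 and 5.04 in the controls and 4.89 and 4.76 in embelin, well above background on control replicate 1 and embelin replicate 2 only, so that no order is read from its values.

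CASP8, the paralogue of CASP10 and its neighbour in the genome, was read by a pair of probes that did not give the same difference. P157087 read 7.65 and 7.69 in the controls and 7.22 and 7.25 in embelin. The groups were separate and tight, with SDs of 0.03 in each, and the difference of -0.43 (SE 0.17, 95% interval -0.90 to 0.03) had an unadjusted p of 0.0619 and an adjusted p of 0.308. It was -0.39 in the low-background pair and -0.47 in the noisier pair. P209389, the probe that shared the most runs with other probes, read 9.85 and 11.09 in the controls and 10.57 and 10.62 in embelin, so that both embelin arrays lay between the controls. Its difference was 0.13 (SE 0.46, 95% interval -1.11 to 1.36, adjusted p = 0.927), and control replicate 1 and 2 differed from each other by more than any mean difference of the 8 genes. The differences of these probes were 0.56 apart, which was not tested. The third CASP8 probe, P148499, was dim and read 4.51 and 3.65 in the controls and 3.88 and 5.03 in embelin, with overlap.

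CASP2, the initiator of the PIDDosome, also depended on the probe. P387943 read 8.43 and 7.84 in the controls and 7.26 and 7.41 in embelin. Both embelin arrays were below both controls, the controls being the more spread (SD 0.42 against 0.11), and the difference was -0.80 (SE 0.27, 95% interval -1.53 to -0.07, unadjusted p = 0.0381, adjusted p = 0.249). P269398 read 8.14 and 8.41 in the controls and 8.29 and 8.04 in embelin, with overlap and a difference of -0.10 (SE 0.21, 95% interval -0.68 to 0.47, adjusted p = 0.858). The differences of these probes were 0.69 apart, which was not tested. Without control replicate 2 the difference of P387943 was -1.09, and without control replicate 1 it was -0.50. With normexp background correction it was -0.57. In the low-background pair it was -1.02 and in the noisier pair -0.58. The dim probe P215701 read 4.21 and 4.60 in the controls and 3.76 and 4.27 in embelin.

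The apoptosome genes showed small differences. CASP9, the initiator that APAF1 activates, read 10.71 and 10.72 in the controls and 10.40 and 10.96 in embelin with P97309. With P111342 it read 11.06 and 11.14 in the controls and 10.91 and 11.38 in embelin. In both probes embelin replicate 1 was the lowest array and embelin replicate 2 the highest, with the controls between them. The differences were -0.04 (SE 0.26, 95% interval -0.73 to 0.66, adjusted p = 0.964) and 0.05 (SE 0.24, 95% interval -0.60 to 0.69, adjusted p = 0.951). The pairs of like background went opposite ways, at 0.25 and 0.32 in the low-background pair and -0.32 and -0.23 in the noisier pair. APAF1, the scaffold, read 7.08 and 7.18 in the controls and 7.30 and 7.38 in embelin. Both embelin arrays were above both controls, and the difference was 0.21 (SE 0.18, 95% interval -0.26 to 0.69, adjusted p = 0.597), with 0.30 in the low-background pair and 0.13 in the noisier pair. The intervals leave room for differences in either direction in both genes.

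CASP6, the executioner of the 8 genes, which cuts nuclear lamins, read 10.95 and 10.98 in the controls and 10.56 and 10.45 in embelin. The groups were apart by far more than the spread within them (SD 0.03 and 0.08). The difference was -0.46 (SE 0.18, 95% interval -0.94 to 0.02, unadjusted p = 0.0559, adjusted p = 0.293), at -0.50 and -0.42 in the low-background and the noisier pair. In every alternative tried it lay between -0.52 and -0.40, and it never passed adjustment.

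The inflammatory caspases differed from each other in their values. CASP1, which matures interleukins on inflammasomes, read 6.74 and 6.93 in the controls and 6.09 and 6.38 in embelin, with no overlap. The lowest signal called well above background on embelin replicate 1 was 5.97, near the 6.09 read there. The difference of CASP1 was -0.61 (SE 0.21, 95% interval -1.17 to -0.04), with an unadjusted p of 0.0405 and an adjusted p of 0.255. It was -0.36 in the low-background pair and -0.85 in the noisier pair. With normexp background correction it was -0.27, and with the other processing and models it lay between -0.66 and -0.61. CASP4, the sensor of intracellular lipopolysaccharide, read 12.22 and 12.55 in the controls and 12.41 and 12.14 in embelin with P35906. With P35912 it read 11.97 and 12.04 in the controls and 11.97 and 11.79 in embelin. The first probe overlapped between groups and the second was separate by less than 0.01. The differences were -0.11 (SE 0.23, 95% interval -0.71 to 0.50, adjusted p = 0.865) and -0.13 (SE 0.18, 95% interval -0.63 to 0.37, adjusted p = 0.778).

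**Figure D2:**
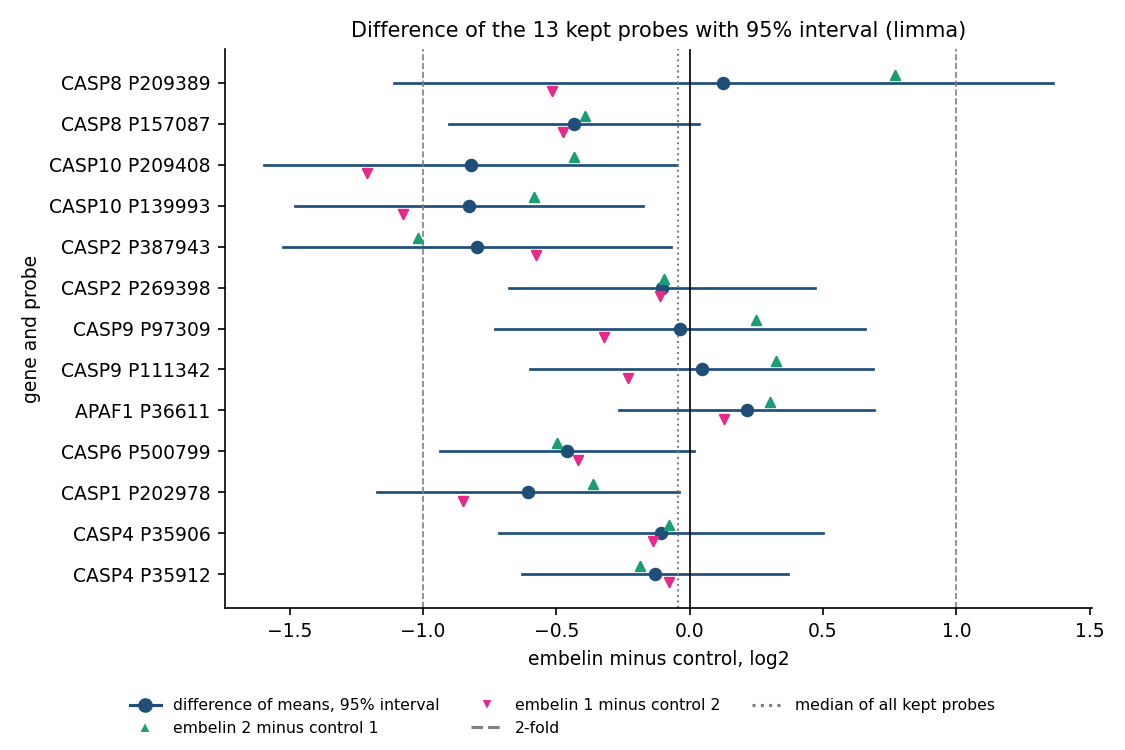
Difference between embelin and control of the 13 compared probes, on the log2 scale. Circles are differences of the group means (n = 2 arrays each) with the 95% interval from limma, triangles are the differences within the 2 pairs of arrays of like background, the dotted line is the median of all compared probes at -0.04, and dashed lines mark 2-fold. The intervals of both CASP10 probes, CASP2 P387943 and CASP1 lie below 0 before adjustment, and triangles of CASP9 and of CASP8 P209389 lie on opposite sides of 0.

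Genes with several probes were also taken as 1 value each, fitted and adjusted over all genes. By the mean over the compared probes of a gene, CASP10 differed by -0.82 (SE 0.26, adjusted p = 0.218), CASP2 by -0.45 (SE 0.18, adjusted p = 0.294) and CASP8 by -0.15 (SE 0.28, adjusted p = 0.821). By the probe with the highest mean signal, CASP2 differed by -0.10 and CASP8 by 0.13, since that probe is P269398 for CASP2 and P209389 for CASP8. Of the 8 genes, 0 passed adjustment by either way of counting. For CASP2 the value thus moved from -0.45 to -0.10 with the way of counting, and for CASP8 its sign turned.

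The genes around the caspases were described from 5 lists written by hand, each gene by its compared probe with the highest mean signal. Of the 54 genes listed, 43 could be compared, of which those of 4 lists are described below. Over all 5 lists, 0 passed adjustment in either direction, and 2 were higher and 3 lower by 2-fold at an unadjusted p under 0.05, against 8.36% of all probes. By this rule IL1B and PANX1 were higher and CARD8, DFFB and LMNB1 lower. DFFB entered this count through its control arrays alone, as 1 of its embelin arrays was not well above background. Over all 17649 genes taken in the same way the median difference was -0.06.

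All 10 apoptosome partners and regulators were compared, with a median of -0.02. CYCS, which encodes cytochrome c, the trigger of APAF1, read 12.96 and 12.88 in the controls and 13.25 and 13.42 in embelin, a difference of 0.42 (SE 0.18, adjusted p = 0.343), and its other compared probe differed by 0.12. HSPA8, a chaperone that binds APAF1, differed by -0.39 (SE 0.17, adjusted p = 0.347), with lower means in its other 3 probes. Beside them APAF1 and CASP9 stood at 0.21 and at -0.04 and 0.05.

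Of the platforms and adaptors of the initiators, 10 of 10 were compared, with a median of 0.16. FADD, the adaptor that joins CASP8 and CASP10 to death receptors, read 13.78 and 13.78 in the controls and 12.97 and 13.14 in embelin, with no overlap. It differed by -0.73 (SE 0.18, adjusted p = 0.160), and its other probe by -0.72 (SE 0.39, adjusted p = 0.420). TRADD, an adaptor of the tumour necrosis factor receptor, read 13.19 and 13.28 in the controls and 13.80 and 13.95 in embelin, a difference of 0.65 (SE 0.18, adjusted p = 0.191). Other members of this list had higher means in embelin, among them the death receptors TNFRSF10A (0.57) and TNFRSF10B (0.48, other probe 0.87). These were named after their values were seen. PIDD1 (-0.10) and MADD (-0.09) had lower means, and none of the list passed adjustment.

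Of 14 inflammasome genes 6 were compared, with a median of -0.26, since most of the sensors were dim in these cells, as NLRP3, NLRC4 and AIM2 were, and no probe was matched to CARD16 or CARD17. CARD8, a sensor and regulator of CASP1, read 8.43 and 8.26 in the controls and 6.59 and 7.07 in embelin, a difference of -1.52 (SE 0.24, adjusted p = 0.0821). IL1B, the cytokine precursor that CASP1 cuts, read 5.997 and 6.09 in the controls and 7.15 and 6.99 in embelin. The difference was 1.02 (SE 0.18, adjusted p = 0.0963). On control replicate 2 the lowest signal called well above background was 5.85, near the 6.09 of IL1B. The other CASP1 substrates of the list, IL18 and GSDMD, named after their values were seen, differed by -0.08 and -0.21, and none of these genes passed adjustment.

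Of 15 executioner substrates and effectors, 14 were compared, with a median of -0.01. PANX1, the membrane channel that executioner caspases open, read 8.94 and 9.29 in the controls and 10.13 and 10.40 in embelin, a difference of 1.15 (SE 0.23, adjusted p = 0.113), and its other probe differed by 0.89 (SE 0.19, adjusted p = 0.126). DFFB, the caspase-activated nuclease, read 6.73 and 6.72 in the controls and 5.36 and 5.92 in embelin. Only 1 of its embelin arrays was well above background, so that the probe was compared through its control arrays alone. Its difference of -1.09 rests on a value that is a bound, and no p is given for it. LMNB1, a nuclear lamin, was chosen after its values were seen, and differed by -1.30 (SE 0.44, adjusted p = 0.246).

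**Figure D3:**
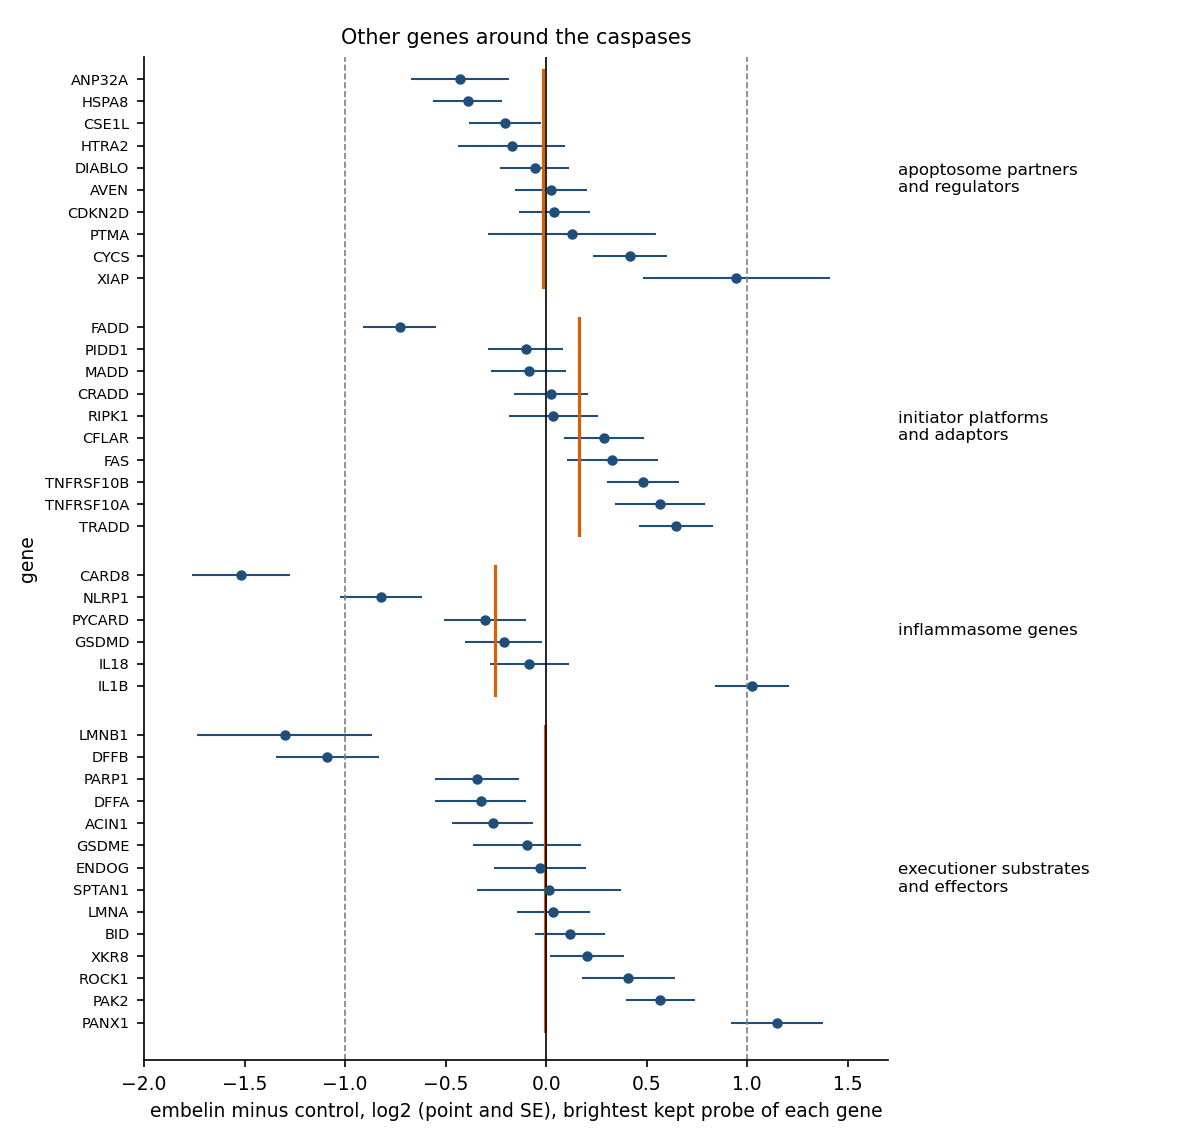
Difference between embelin and control (log2, point with SE, n = 2 arrays a group) of the 40 compared genes of the 4 lists described, each by its compared probe with the highest mean signal, sorted within its list. Orange lines are list medians, from -0.26 for inflammasome genes to 0.16 for platforms and adaptors, and dashed lines mark 2-fold. CARD8, LMNB1 and DFFB lie below and IL1B and PANX1 above the 2-fold lines, and none passed adjustment. The point of DFFB rests on a value that is a bound, as 1 of its embelin arrays was not well above background.

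The pattern of CASP10 P139993, the probe with the largest difference, was compared over the 4 arrays with the 43 genes, each centred on its own mean. The smallest Euclidean distances, on the log2 scale, were those of FADD (0.25), DFFB (0.26) and ANP32A (0.48), a regulator of the apoptosome. DFFB was well above background on 1 of the embelin arrays only, so that its distance rests on a value that is a bound. This is a description over 4 arrays of 1 experiment.

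The label of the cells was checked by markers. All 5 epithelial markers (KRT7, KRT8, KRT18, EPCAM and CDH1) were well above background on all 4 arrays. None of the 4 alveolar type II surfactant genes and none of 3 endothelial markers was so on all 4. Of the leukocyte markers, CD68 and CD14 were above background on all 4 arrays, while PTPRC, the defining marker, was above on 1 array. The summed signal of the 5 leukocyte markers was 10.71 to 11.07 (log2) in controls and 11.04 to 11.04 in embelin. The summed signal of the 3 fibroblast markers was 6.48 to 6.68 in controls and 7.74 to 9.01 in embelin, with COL1A1 above background on all arrays and PDGFRB on none. The top of the embelin range was set by COL1A2, above background on 1 array, which read 8.30 on embelin replicate 1 and 1.702 on embelin replicate 2. COL1A1 read 6.38 and 6.27 in the controls and 7.56 and 7.69 in embelin. The summed signal of the 5 epithelial markers was 18.46 to 18.66 in controls and 18.26 to 18.30 in embelin. The part of these markers in the results was not tested.

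**Figure D4:**
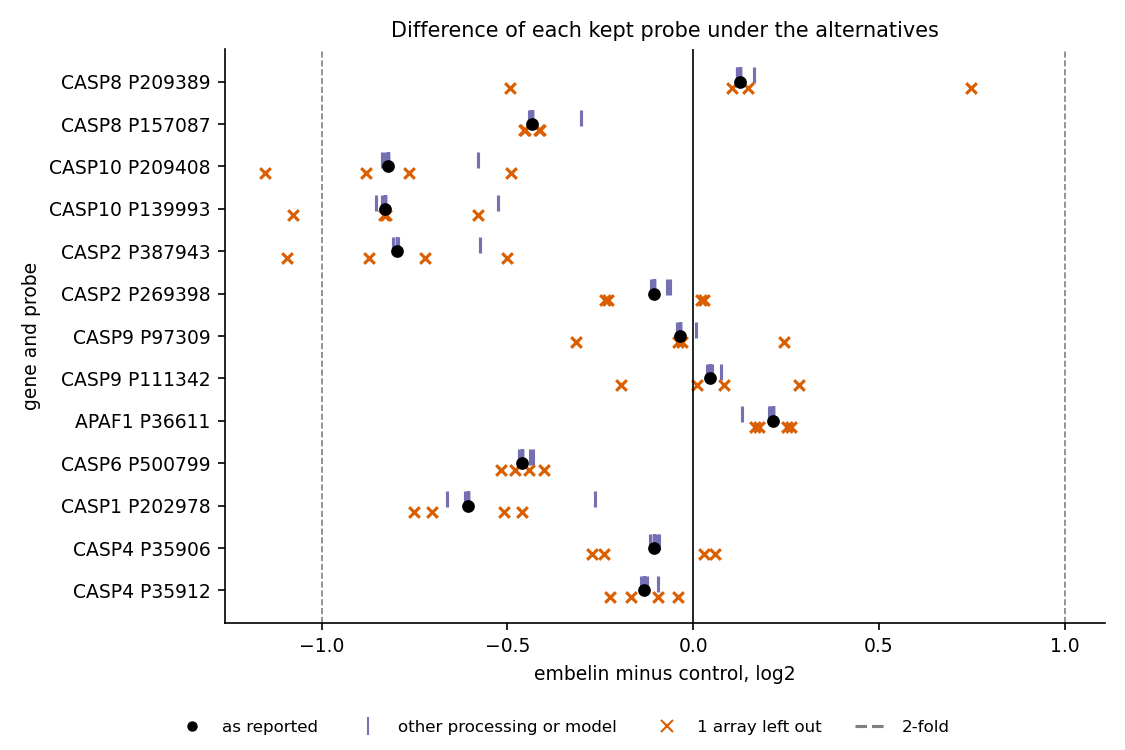
Difference between embelin and control (log2) of the 13 compared probes as reported (black). Purple bars are 11 other ways of processing or modelling, where they give a value, and orange crosses leave out each array in turn. Of the 11 ways, only normexp, quantile normalization and the deposited table gave values other than the reported ones. The values of both CASP10 probes, CASP2 P387943, CASP1, CASP6, CASP4 P35912 and CASP8 P157087 stay below 0 and those of APAF1 above it, while crosses of both CASP9 probes, CASP8 P209389, CASP4 P35906 and CASP2 P269398 lie on both sides.

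Over the 15 alternatives tried for each probe, the difference was below 0 in 15 for the 7 probes of CASP10 (both), CASP2 P387943, CASP1, CASP6, CASP8 P157087 and CASP4 P35912, and above 0 in 15 for APAF1. In the 13 probes only normexp, quantile normalization, the deposited table and leaving out an array gave a difference other than the reported one. The filters, outlier spots kept, trend and robust, the blocks, slide position and the methods' own test left every difference as reported. Their sign thus adds nothing to that of the reported difference. The deposited table gave nearly the same values, at -0.615 against -0.606 for CASP1. The lowest adjusted p that any of the 13 probes reached in the 15 alternatives was 0.141, for CASP10 P139993.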

How the data were processed

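The authors deposited Agilent Feature Extraction 10.7.3.1 intensities, 1 file per array, in which background was subtracted and trends were corrected within the array, and a table of probe intensities, which gave an alternative. Neither was normalized between arrays. Here the intensities of non-control spots were scaled to equal 75th percentiles (721, 601, 648 and 739 before scaling), as the study's methods name, given a floor of 1 and expressed as log2. Outlier spots were left out and spots of a probe averaged. A probe was kept (26146 in all) where both control arrays, or both embelin arrays, had it well above background, and no spot was saturated. Limma 3.58.1 in R 4.3.3 (lmFit, eBayes) compared embelin with control per probe, with Benjamini-Hochberg adjustment over the 26145 probes with a p, and was tested on simulated data. The variance of each probe was moderated towards a common one (prior SD 0.235, 2.31 prior degrees of freedom). An SE therefore does not rest on the spread of its own probe alone. The number of arrays limits the precision. PIDD1 was matched through its older name LRDD in the RefSeq synonyms.

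The members and gene lists were chosen with earlier results of these data known. Every probe of the 8 genes is named. From each list the genes that passed adjustment were to be named, or else the 2 with the lowest p. Some items under these rules are counted but not reported here. The 3 nearest list genes to 1 caspase probe are also named. The alternatives were normexp correction (offset 50), quantile normalization, the deposited table, no filter on dim probes or one asking for all 4 arrays, outlier spots kept, limma with trend and robust, the methods' t-test, a replicate block, a block for array background, slide position, gene-level values, and leaving out each array.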

Additional observations from a re-analysis of the deposited data

How the results depend on the processing

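The count of caspase and APAF1 probes that passed adjustment was 0 under all 15 alternatives. Where 0 of all probes passed, as listed in the next paragraph, the 0 for these genes followed from that. Other probes did pass with normexp, quantile normalization, the deposited table, the filter for all 4 arrays, outlier spots kept and trend and robust. The count past 2-fold at an unadjusted p under 0.05 was 0 in every alternative that left no array out. As reported it was 0 of the 13, against 8.36% of all probes. Without control replicate 2, CASP2 P387943 was past 2-fold in size, at -1.09. Both CASP10 probes were so without embelin replicate 2, at -1.15 and -1.08. Of the other genes, 1 passed adjustment with normexp (CARD8), 1 with the filter for all 4 arrays (CARD8) and 3 with trend and robust (CARD8, FADD and PANX1), and the cause was not tested. Under quantile normalization CASP9 P97309 turned to 0.0068. With each array left out, values ran from -0.49 to 0.75 for CASP8 P209389, from -0.24 to 0.029 for CASP2 P269398, from -0.27 to 0.058 for CASP4 P35906, and from -0.32 to 0.24 and -0.19 to 0.29 for CASP9 P97309 and P111342. A lone array left in a group was assumed to vary like those of the other group.

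The labels do not say whether same-numbered arrays share more than a number (correlation of replicate 1 deviations 0.214 over 25631 probes, from 2 pairs). With the replicate block, 0 caspase and APAF1 probes passed adjustment, as without it. At an unadjusted p under 0.05 stood 4 of them, against 5281 of all 26145 probes. With this block 0 of all probes passed adjustment, against 282 without it. That total was also 0 with no filter, the methods' t-test, the background block, slide position and each array left out, and 820, 768 and 1296 with normexp, the filter for all 4 arrays and trend and robust. The 4 of 13 probes at an unadjusted p under 0.05 without a block, against 4679 of all 26145, became 2 with the background block and 2 with slide position. Of all 26145 probes 3636 stood so with the background block and 4042 with slide position. By the methods' t-test 2 of the 13 probes (CASP6 and CASP8 P157087) had an unadjusted p under 0.05, against 3722 of all 26145. With no filter on dim probes 0 of 16 did, against 2944 of all 50237.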
